A study of Mus musculus with 8 samples.

Results

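The genes described here encode the core of mTORC1, the growth-controlling kinase complex built on mTOR, and proteins that switch it on or off. They are a chosen set of 10 genes, looked up as the probe sets whose only gene symbol in the platform annotation is one of them. Of these, 9 had at least 1 probe set (19 in all, 17 above the filter on low signal), among 11754 genes tested. Rps6kb1, which encodes the S6 kinase that mTORC1 switches on, was not analysed here.

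RNA was measured in germinal centre (GC) B cells, which improve their antibodies by mutation and selection after meeting antigen, from spleens of 8-week-old GFPMYC/C57BL6 mice 12 days after immunization with sheep red blood cells (SRBC). The MYC-positive fraction held PNAhi/CD95hi cells sorted as carrying the GFP-MYC fusion, and the MYC-negative fraction held those sorted as lacking it. B cells were enriched with magnetic beads before the sort, and both fractions come from mice with the knock-in allele, so no mouse without it was compared. Each fraction was hybridised on 4 arrays, and the sample descriptions name 4 pairs of one array from each. Whether a pair is 1 mouse is not settled, because the protocol speaks of each mouse and the design text of pools. P-values therefore measure the spread between these samples, which may not stand for separate animals.

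mTORC1 couples cell growth to nutrients and growth factors. The scaffold raptor (Rptor) brings substrates to the mTOR kinase. Amino acids recruit the complex to the lysosome through Rag GTPases, and there the GTPase Rheb activates it. The TSC1-TSC2 complex turns Rheb off, and Ddit4 (REDD1), induced by stress, acts through that complex. These steps are set largely by protein binding and phosphorylation, which an array of RNA does not measure. In GC B cells mTORC1 activity is known to accompany growth after help from T cells.

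CACGTG is the E-box, a DNA site that MYC bound to MAX recognises, as do the lysosomal regulators TFEB and TFE3. All 10 genes matched the RefSeq promoter table (GRCm38.p6), 1 promoter each, from 250 bases before to 50 after the start. CACGTG, which reads the same on both strands, was in 2 of these 10 promoters, those of Rheb and Rragc, and in 7.2% of all 32851 promoters of the same length. Shown 5′ to 3′ are the 150 bases before the start of those 2 genes, with the E-box in capitals, and of Tsc1, the only member whose RNA passed the test below. The E-box begins 96 bases before the start of Rheb and 112 before that of Rragc. The stretches are chr5:24842362-24842511 on the minus strand for Rheb, chr4:123917283-123917432 on the plus strand for Rragc and chr2:28641083-28641232 on the plus strand for Tsc1. A match is a description of letters, not evidence of binding.
Rheb: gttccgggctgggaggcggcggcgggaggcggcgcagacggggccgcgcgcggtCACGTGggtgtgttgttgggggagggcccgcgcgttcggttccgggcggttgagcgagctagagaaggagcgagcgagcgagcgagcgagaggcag
Rragc: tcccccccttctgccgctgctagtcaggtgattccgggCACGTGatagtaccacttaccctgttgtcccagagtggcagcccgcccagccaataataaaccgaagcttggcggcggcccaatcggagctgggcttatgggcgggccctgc
Tsc1: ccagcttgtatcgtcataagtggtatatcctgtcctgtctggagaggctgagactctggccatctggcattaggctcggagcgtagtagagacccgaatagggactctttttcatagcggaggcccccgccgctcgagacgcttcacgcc

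The values were probe set signals on a linear scale, and the trimmed mean of each array was between 497 and 498. Myc, the gene the cells were sorted on, had signals from 361 to 932 in MYC-positive and from 33.3 to 156 in MYC-negative arrays, which checks the labels and is no finding. Among B cell markers, 6 of 6 on the array were above the filter, with summed signals of 35560 to 46490 in MYC-positive and 41450 to 49270 in MYC-negative arrays. The 6 germinal centre markers were also above it, with sums of 20660 to 26510 in MYC-positive and 26640 to 39850 in MYC-negative arrays. Of the 6 B cell markers 0 rose and 2 fell, Cd22 (-0.63) and Pax5 (-1.75). Cd79a, Ms4a1 and Cd79b were at -0.53, -0.15 and -0.29, and Ighm went the other way at 0.35, and these did not pass. Of the 6 germinal centre markers 0 rose and 2 fell, Fas (-0.61), whose product CD95 was used in the sort, and Mybl1 (-2.125), while Bcl6 and S1pr2 were at -0.32 and -0.33 and did not pass. Macrophage markers were higher in the MYC-positive arrays. Of 16, 13 were above the filter, of which 9 rose and 1, Apoe, fell, while Cd14, Mertk and Itgam lay below it. C1qa was 5.07 higher on the log2 scale, C1qb 3.86 and Csf1r 6.40. The summed signal of the 16 was 11490, 5058, 1706 and 3830 in MYC-positive arrays of pairs 1 to 4, against 1644, 1526, 1018 and 755 in MYC-negative arrays. The part of these transcripts in the results below was not tested. Of the 2 T cell markers above the filter, Thy1 rose (2.34), and Cd8a was at -0.52 and did not pass. Cd3e, Cd3d and Cd3g, all 4 erythroid markers and 6 of 7 granulocyte markers were below the filter. Of 4 plasma cell markers above the filter, Sdc1 rose (2.02) and 0 fell, and Prdm1 at 0.54 and Xbp1 at 0.35 did not pass. The summed granulocyte signal was 603 in the MYC-positive array of pair 4, and 47.65 to 131 in the other 7 arrays. Of the 603, S100a9 gave 423 and S100a8 139. Ltf was also higher in that array than in its partner, while Ngp, Camp, Elane and Mpo were lower. S100a8, the granulocyte marker above the filter, was at 0.08 and did not pass, and S100a9 and Ngp were below the filter. The lowest correlation between any 2 arrays, 0.82, was that of the MYC-positive array of pair 4 with the MYC-negative array of pair 1. The highest correlation of the MYC-positive array of pair 4 with another array was 0.90, where the other 7 arrays reached 0.951 to 0.969. Its median signal was also the lowest, 28.2, where the other 7 arrays had 36.8 to 55.8.

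Only 1 of the 9 members passed the test. Tsc1 fell in the MYC-positive fraction, and 0 members rose. Across all genes tested the limma fit called 22.7% at an adjusted p under 0.05, 11.2% higher and 11.5% lower, so 1 call among 9 members is not above the background. At an unadjusted p under 0.05 the counts were also 0 higher and 1 lower, where 1996 of all 11754 genes were higher and 2257 lower. The members' median log2 difference was -0.24, where that of all genes was -0.06, and 8 of 9 had a negative sign. That sign depended on the scaling. Quantile normalization raised the median of all genes by 0.15 and left 6 members negative, and centring each array on its median raised it by 0.44 and left 2. Taken relative to the median of all genes, 8 members were below it as deposited and 7 after quantile normalization, and median centring leaves this count as it is by construction. In bulk samples, fewer cells of a type and less RNA per cell cannot be told apart.

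**Figure D1:**
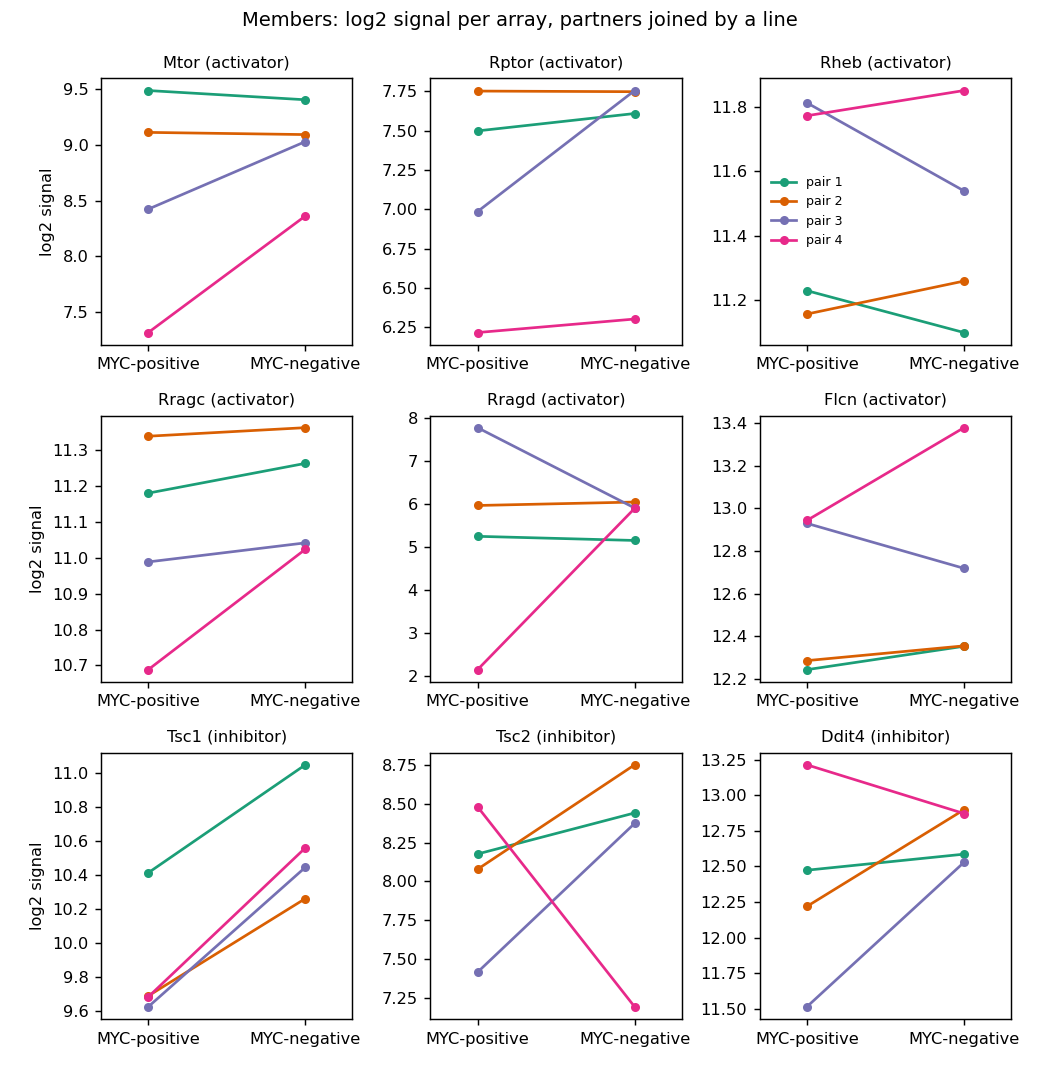
Log2 signal of the 9 measured members (one panel each, y axes differ) in MYC-positive arrays on the left and MYC-negative arrays on the right, with partners joined by a line. Tsc1 and Rragc slope the same way in all 4 pairs, and Ddit4 and Tsc2 slope the other way in pair 4 than in pairs 1 to 3.

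TSC1, or hamartin, stabilises the TSC complex that inactivates Rheb. The brightest Tsc1 probe set, 1455252_at, had signals of 1363, 825, 789 and 821 in MYC-positive arrays of pairs 1 to 4, against 2118, 1227, 1394 and 1509 in MYC-negative arrays. The MYC-positive array was the lower of its pair in 4 of 4 pairs, although the groups overlapped, since the MYC-positive array of pair 1 was above the MYC-negative array of pair 2. The difference was -0.73 on the log2 scale (SE 0.17, 95% interval -1.11 to -0.34, limma adjusted p = 0.0166), or 0.604 times the MYC-negative level. Relative to the median of all genes it was -0.66 as deposited and -0.76 after quantile normalization. In pairs 1 to 4 Tsc1 differed by -0.64, -0.57, -0.82 and -0.88. The macrophage marker sums given above were higher in the MYC-positive array of each pair, and their part in the difference of Tsc1 was not tested.

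The call of Tsc1 ended without pair 1, 2 or 3 (adjusted p = 0.0910, 0.0847 and 0.0515), with no block for the pairs (0.0604), after median centring (0.276) and with the mean over probe sets (0.134). Over 13 alternatives, single probe sets aside, the difference lay between -0.998 and -0.29 and adjusted p between 0.00584 and 0.276. Of the other Tsc1 probe sets, 1439989_at was also lower in MYC-positive in 4 of 4 pairs but did not pass, and 1422043_at was not lower in all pairs. On 1439989_at signals were 140, 110, 126 and 2.60 in MYC-positive arrays, against 315, 255, 233 and 184 in MYC-negative arrays. Here the groups did not overlap, as 22% of all genes on their brightest probe set did not. The fit over all 22024 kept probe sets, of which it called 21.1%, gave -2.36 (SE 0.81, adjusted p = 0.070), and pair 4 alone differed by -6.15. On the dim 1422043_at, with signals of 25.3, 39.7, 11.4 and 24.8 in MYC-positive arrays and 31.9, 5.93, 27.2 and 42.8 in MYC-negative arrays, the difference was 0.09 (SE 0.70).

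TSC2, or tuberin, carries the GTPase-activating activity of the complex. Tsc2 signals were 289, 270, 171 and 357 in MYC-positive arrays, against 347, 430, 332 and 147 in MYC-negative arrays. The MYC-positive array was the lower in pairs 1 to 3 and the higher in pair 4, by 1.28. The mean difference was -0.15 (SE 0.38, adjusted p = 0.815), with an interval of -1.01 to 0.71 that holds changes of this size in both directions. Without pair 4 it was -0.63 (adjusted p = 0.086). In pair 4 the MYC-negative signal of 147 was the lowest of all arrays, and the MYC-positive signal of 357 was the highest of its group. The MYC-positive array of pair 4 is the one with the lowest median signal, 28.2, and with the granulocyte sum of 603, mostly S100a9 and S100a8. The part of either in the values of Tsc2 and Ddit4 was not tested.

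Ddit4 signals were 5688, 4769, 2927 and 9498 in MYC-positive arrays, against 6150, 7633, 5909 and 7494 in MYC-negative arrays. As with Tsc2, pair 4 went the other way: the highest and the lowest of the 8 signals were both MYC-positive, in pairs 4 and 3. The difference was -0.37 (SE 0.21, 95% interval -0.84 to 0.11, adjusted p = 0.248). Without pair 4 it was -0.60 and passed the test (adjusted p = 0.0113), while over all 13 alternatives adjusted p reached 0.837, after median centring, where the sign turned to 0.08.

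mTOR is the kinase itself. Its brightest probe set, 1417592_at, had signals of 719, 554, 343 and 159 in MYC-positive arrays, against 679, 546, 523 and 329 in MYC-negative arrays. Pairs 1 and 2 were nearly level, with differences of 0.08 and 0.02, and pairs 3 and 4 were lower in the MYC-positive array by 0.61 and 1.05. The mean was -0.39 (SE 0.27, 95% interval -0.99 to 0.21, adjusted p = 0.334). The other Mtor probe sets differed by -0.35 (1446185_at, SE 0.38) and 0.28 (1436267_a_at, SE 0.38), and pair 4 on 1446185_at was 1.004 higher where on 1417592_at it was 1.05 lower. The 3 genes whose log2 signals followed Mtor most closely over the 8 arrays were Rtf1 (Pearson r = 0.996), Snx19 (0.990) and Nrf1 (0.990). For Tsc1 they were Hk3 (0.987), Nagk (0.959) and Slc30a9 (0.955). These are the highest correlations among all genes tested, over 8 arrays that share the group difference, and are descriptions only.

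Rptor signals on its brightest probe set, 1434619_at, were 181, 216, 127 and 74.3 in MYC-positive arrays, against 195, 215, 216 and 78.9 in MYC-negative arrays. Pair 4 was low in both fractions and pair 3 differed by -0.77, while pairs 1 and 2 differed by -0.11 and 0.004. The mean difference was -0.24 (SE 0.305, adjusted p = 0.616). A dimmer probe set, 1458472_at, did not overlap between fractions, as 22% of all genes on their brightest probe set did not. It had 16.1, 26.8, 14.8 and 11.0 in MYC-positive arrays against 47.3, 47.2, 39.2 and 44.7 in MYC-negative arrays. Its difference of -1.45 (SE 0.46, adjusted p = 0.054) missed the threshold, and 3 of its 4 MYC-positive signals were under the filter level of 18.7. The remaining Rptor probe set, 1430784_a_at, differed by -0.54 (SE 0.52).

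Rheb, the direct activator, did not pass the test, and its interval was among the narrowest of the members. Its signals were 2402, 2284, 3598 and 3499 in MYC-positive arrays, against 2195, 2452, 2977 and 3694 in MYC-negative arrays. Pairs 3 and 4 were higher than pairs 1 and 2 in both fractions, and the MYC-positive array was the higher in 2 of 4 pairs. The difference was 0.06 (SE 0.145, 95% interval -0.27 to 0.38, adjusted p = 0.822). After median centring, which moved all genes up, it was 0.50 (adjusted p = 0.064). Rheb is one of the 2 members with the E-box shown above.

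Rragc, which encodes the Rag GTPase RagC and is the other member with an E-box, gave an interval of similar width. Its signals were 2319, 2588, 2031 and 1650 in MYC-positive arrays, against 2456, 2631, 2107 and 2081 in MYC-negative arrays. All 4 pairs were lower in the MYC-positive array, 3 of them by less than 0.1, and the mean was -0.12 (SE 0.15, 95% interval -0.46 to 0.21, adjusted p = 0.592). Tsc1 and Rragc were thus the 2 of 9 members lower in all pairs, and 23% of all genes were.

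Rragd encodes RagD, a paralog of RagC. Its only probe set above the filter had signals of 38.0, 62.5, 220 and 4.40 in MYC-positive arrays, against 35.5, 66.1, 60.01 and 59.7 in MYC-negative arrays. The highest and the lowest of the 8 were both MYC-positive, in pairs 3 and 4, with pair differences of 1.87 and -3.76. The mean of -0.47 (SE 0.78, adjusted p = 0.712) has an interval from -2.24 to 1.304, and with signals under 32 set to 32 it was 0.25. The other 2 Rragd probe sets were below the filter, at 0.817 to 17.3 in MYC-positive and 4.49 to 43.0 in MYC-negative arrays. The change of Rragd is therefore undetermined at this signal.

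Flcn encodes folliculin, which acts on RagC and RagD as a GTPase-activating protein. Its brightest probe set, 1438167_x_at, had signals of 4844, 4989, 7804 and 7878 in MYC-positive arrays, against 5228, 5235, 6740 and 10660 in MYC-negative arrays, a difference of -0.10 (SE 0.14, adjusted p = 0.647). The suffix _x_at marks probe sets in which some probes also match other sequences, so this signal may not be Flcn alone. The probe set without that mark, 1423663_at, had 129, 220, 198 and 344 in MYC-positive arrays and 401, 373, 313 and 174 in MYC-negative arrays. It was lower in pairs 1 to 3 and higher in pair 4, with a mean of -0.52 (SE 0.405, adjusted p = 0.392). The third, 1456744_x_at, was at 0.02 (SE 0.33).

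**Figure D2:**
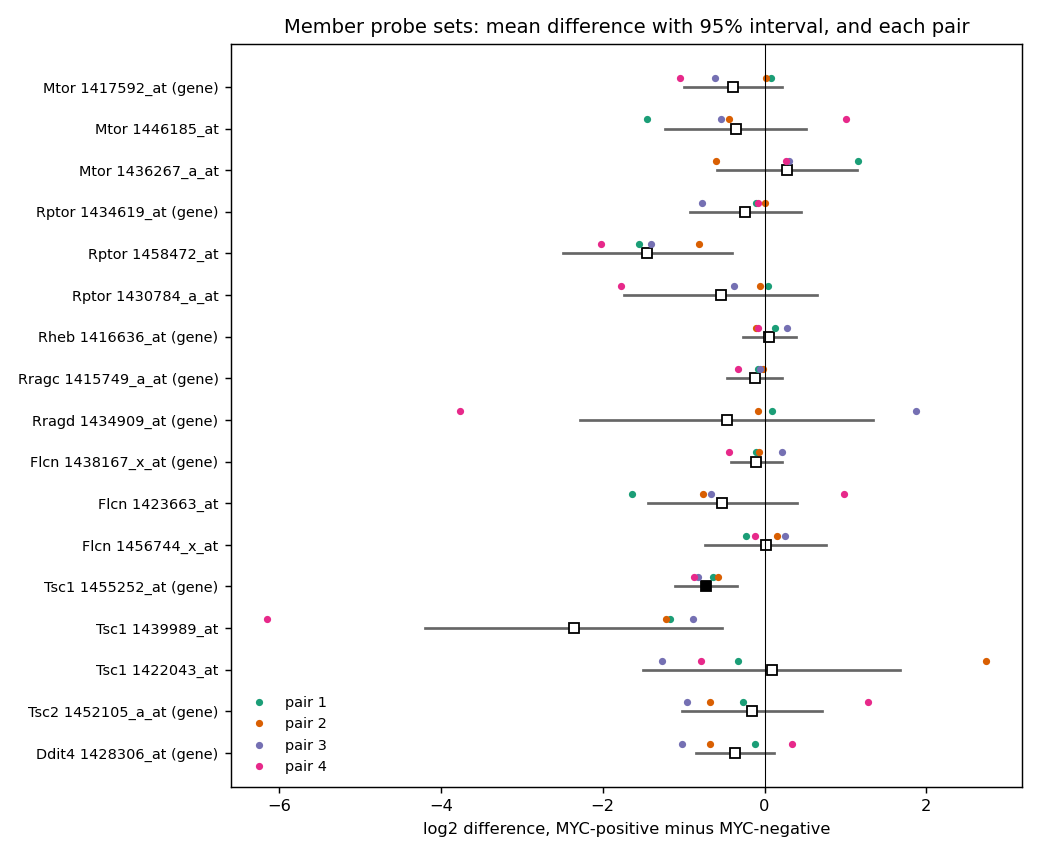
Log2 difference, MYC-positive minus MYC-negative, of the 17 member probe sets above the filter. Squares are means with 95% intervals, filled where adjusted p is under 0.05, and coloured points above them are the 4 pairs. The brightest Tsc1 probe set, at -0.73, is the only filled square.

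Of the 17 member probe sets above the filter, 13 had a negative and 4 a positive difference, 1 passed the test, and 3 of the 4 genes with several such probe sets had both signs among them. The MYC-positive array of pair 4 held the lowest of the 8 signals for 7 of the 17, and the other arrays for 0 to 3 each. That array also had the lowest median signal over all probe sets, 28.2. Its share of lowest signals over all probe sets was not counted, so whether the 7 are particular to the members was not tested.

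The activators were compared with the inhibitors by the mean log2 signal of Mtor, Rptor, Rheb, Rragc, Rragd and Flcn minus that of Tsc1, Tsc2 and Ddit4. This is a description, with no test. The activator mean differed by 0.001, -0.04, 0.16 and -0.96 in pairs 1 to 4, and the inhibitor mean by -0.34, -0.64, -0.93 and 0.25. In pairs 1 to 3 the balance was thus higher in the MYC-positive array, by 0.34, 0.60 and 1.09, and in pair 4 it was lower by 1.21. The mean over pairs was 0.20, with an SD of 0.99 that is larger than the mean. It was 0.67 without pair 4, whose MYC-positive array has the lowest median signal and high S100a9 and S100a8 signals, and -0.09 without pair 3. The activator mean includes the dim Rragd, which differed by 1.87 in pair 3 and by -3.76 in pair 4, where its MYC-positive signal was 4.40. With signals under 32 set to 32 the mean of the balance over pairs was 0.32.

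**Figure D3:**
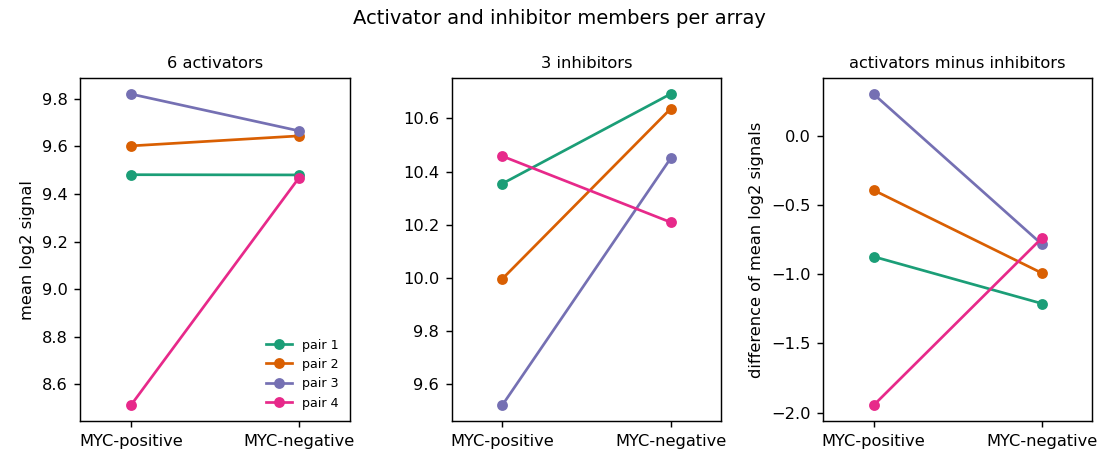
Mean log2 signal of the 6 measured activators (left), of the 3 inhibitors (middle) and their difference (right), MYC-positive on the left of each panel, with partners joined. The inhibitor mean is lower in the MYC-positive array of pairs 1 to 3 and higher in that of pair 4.

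The other genes of the pathway were described in 7 lists of 118 genes, of which 104 were tested, members included. Of these, 16 rose and 9 fell, with a median of 0.03, where 11.2% of all genes rose and 11.5% fell, with a median of -0.06. The counts of each list stand against that same background and are descriptions with no test of the list.

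Among inhibitors of the amino acid branch, 0 of 11 rose and 3 fell, with a median of -0.27. Sesn1 fell by 1.03 on the log2 scale (SE 0.20, adjusted p = 0.00881) and Sesn3 by 0.87 (SE 0.19, adjusted p = 0.0122). They encode sestrins, which restrain mTORC1 through GATOR2. On an _s_at probe set, whose probes may match several transcripts, Sesn1 signals were 747, 575, 696 and 1274 in MYC-positive arrays, against 1052, 1116, 1685 and 3301 in MYC-negative arrays, and each pair was lower in MYC-positive. Bmt2, which encodes the S-adenosylmethionine sensor SAMTOR, fell by 0.68 (SE 0.16, adjusted p = 0.0169). The GATOR1 genes Nprl2, Nprl3 and Depdc5 were at -0.11, -0.27 and -0.43 and did not pass. The calls of these 3 genes ended without pair 2, with adjusted p of up to 0.118 for Sesn3 and 0.0765 for Sesn1 over the alternatives, and that of Bmt2 also without pair 1 or 3, with adjusted p of up to 0.349. At an unadjusted p under 0.05 the counts were 0 higher and 4 lower of 11, where 1996 of all 11754 genes were higher and 2257 lower.

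In the activating amino acid branch, 2 of 17 rose and 1 fell, with a median of 0.11. The one that fell was Slc38a9, which encodes the lysosomal arginine sensor. Its signals were 635, 496, 449 and 352 in MYC-positive arrays, against 2005, 1239, 1420 and 744 in MYC-negative arrays, with no overlap (22% of all genes had none). It differed by -1.43 (SE 0.20, adjusted p = 0.00241) and kept its call under all 13 alternatives, with differences of -1.55 to -0.99. Fnip2, which encodes a partner of folliculin, rose by 1.59 (SE 0.48, adjusted p = 0.0437), with signals of 470, 391, 436 and 108 in MYC-positive arrays and 114, 101, 64.4 and 141 in MYC-negative arrays. Pair 4 went the other way. Sec13, of GATOR2 and also of the secretory coat, rose by 0.46 (SE 0.14, adjusted p = 0.0481). The call of Fnip2 ended without pair 1, 2 or 3 and that of Sec13 without any 1 of the 4 pairs, at adjusted p of up to 0.192 and 0.221 over the alternatives. The Lamtor genes, which encode the lysosomal anchor of the Rag GTPases, were at -0.16 to 0.37 with 0 of 5 called.

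Of 11 subunits and assembly factors of mTORC1 and mTORC2, 1 rose and 1 fell, with a median of -0.16. Rictor, which encodes the scaffold of mTORC2, had signals of 197, 413, 256 and 348 in MYC-positive arrays, against 808, 862, 595 and 426 in MYC-negative arrays. The groups did not overlap, like those of 22% of all genes, and the difference was -1.15 (SE 0.30, adjusted p = 0.0249). Telo2, which encodes a factor that assembles mTOR complexes, rose by 1.03 (SE 0.31, adjusted p = 0.0423). Both calls ended without pair 1 and without pair 2, that of Rictor also without pair 3 and that of Telo2 without pair 4. The call of Rictor also ended after median centring (adjusted p = 0.102), and that of Telo2 with the mean over probe sets (0.0853). Over the alternatives adjusted p reached 0.138 for Rictor and 0.152 for Telo2. In the growth factor and energy branch 0 of 16 rose and 2 fell, Tsc1 and Gsk3b, with a median of -0.07. Gsk3b encodes a kinase that phosphorylates TSC2, and fell by 0.735 (SE 0.16, adjusted p = 0.0130), with no call without pair 1 or 2 and adjusted p of up to 0.293 over the alternatives. The kinase gene Akt1 was at 0.01 and the AMPK subunit gene Prkaa1 at -1.09 (SE 0.45, adjusted p = 0.111). Prkaa1 differed by -1.06, 0.05, -0.43 and -2.94 in pairs 1 to 4, so most of its difference lay in pair 4.

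Among substrates and outputs of mTORC1 and S6 kinase, 3 of 19 rose and 1 fell, with a median of 0.25. Eif4e, which encodes the cap-binding translation factor, rose by 0.73 (SE 0.19, adjusted p = 0.0228) and Larp1, which encodes a binder of ribosomal protein mRNAs, by 0.67 (SE 0.14, adjusted p = 0.0116). Eif4e signals were 4171, 5158, 7830 and 6130 in MYC-positive arrays, against 2574, 2696, 3391 and 5758 in MYC-negative arrays. Eef2k, which encodes a kinase that S6 kinase inhibits, rose by 1.49 (SE 0.27, adjusted p = 0.00589), also on an _s_at probe set, but was at -0.28 (adjusted p = 0.788) on its brightest probe set without that mark. Ulk1, which encodes an autophagy kinase that mTORC1 inhibits, fell, with signals of 119, 176, 69.9 and 47.1 in MYC-positive arrays against 403, 388, 314 and 142 in MYC-negative arrays (-1.67, SE 0.31, adjusted p = 0.00691). The groups overlapped, but each pair was lower in MYC-positive. The calls of Eif4e, Larp1 and Ulk1 ended without pair 1, those of Eif4e and Larp1 without pair 2 and that of Eif4e without pair 3. That of Ulk1 also ended with the mean over probe sets, and those of Eif4e and Larp1 with no intensity trend. With no replicate block that of Eif4e ended too. The adjusted p of these 3 genes reached 0.118, 0.0910 and 0.0911 over the alternatives.

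In the list of ATF4 and its targets downstream of mTORC1, which holds genes of amino acid supply and of the stress response, 9 of 15 rose and 0 fell, with a median of 0.68. Asns, which encodes asparagine synthetase, had signals of 2688, 2814, 3075 and 2545 in MYC-positive arrays, against 455, 613, 835 and 970 in MYC-negative arrays. It rose by 2.01 (SE 0.21, adjusted p = 0.000877). Slc7a5 (1.89), a leucine transporter gene, and Shmt2 (1.29) and Phgdh (1.21), both of serine and glycine metabolism, also rose, and these 4 passed under each alternative in which they were tested. Shmt2 and Phgdh were read on _x_at probe sets. Without _x_at and _s_at probe sets Shmt2 was at 1.49 (limma adjusted p = 0.00304), and Phgdh was not tested. Several of these genes are also known as MYC targets, so the list does not stand for mTORC1 alone. The other 5 that rose were Psat1 (on an _s_at probe set), Psph, Mthfd2, Slc3a2 and Aldh18a1 (on an _x_at probe set). The 6 that did not pass were the stress genes Trib3 (-0.56), Ddit3 (-0.46), Atf5 (-0.09) and Chac1 (0.56), the amino acid transporter gene Slc1a5 (-0.16) and Atf4 itself (0.35, SE 0.17, adjusted p = 0.174). Without pair 1 the count that rose was 4 and without pair 2 it was 5, and without pair 4 there was 1 that fell.

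Of 19 targets of TFEB and TFE3, the lysosomal factors that mTORC1 holds back, 2 rose and 1 fell, with a median of -0.16. They were Fnip2, the cathepsin gene Ctsb (0.72, SE 0.20, adjusted p = 0.0340) and Atp6v0d1, which encodes a subunit of the lysosomal proton pump (-0.69, SE 0.21, adjusted p = 0.0469). Ctsb is abundant in macrophages, and its pair differences of 1.31, 0.34, 0.31 and 0.92 were largest in pairs 1 and 4. Macrophage marker sums were also higher in the MYC-positive array of each pair. The part of those markers was not tested. The calls of Ctsb and Atp6v0d1 ended without pair 1 or 2, and that of Atp6v0d1 without pair 3. Over the alternatives adjusted p was highest with the mean over probe sets for Ctsb (0.309) and after median centring for Atp6v0d1 (0.415).

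**Figure D4:**
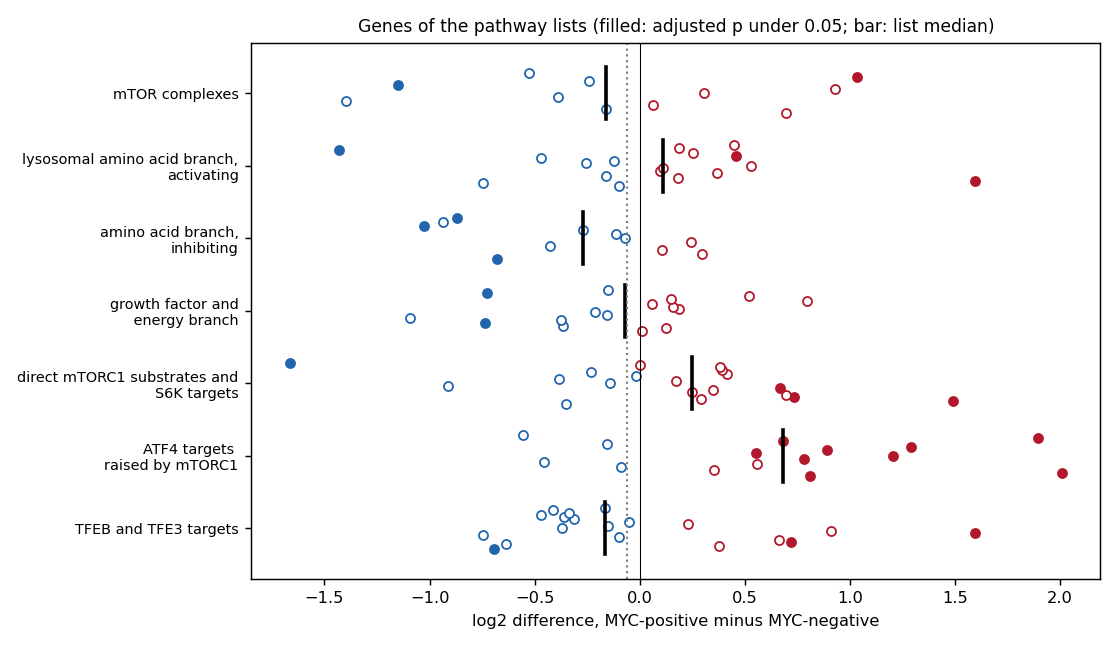
Log2 difference, MYC-positive minus MYC-negative, of the tested genes in 7 pathway lists, red above 0 and blue below, filled where adjusted p is under 0.05. The black bar is the list median, from -0.27 for inhibitors of the amino acid branch to 0.68 for ATF4 targets, and the dotted line is the median of all genes at -0.06.

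**Figure D5:**
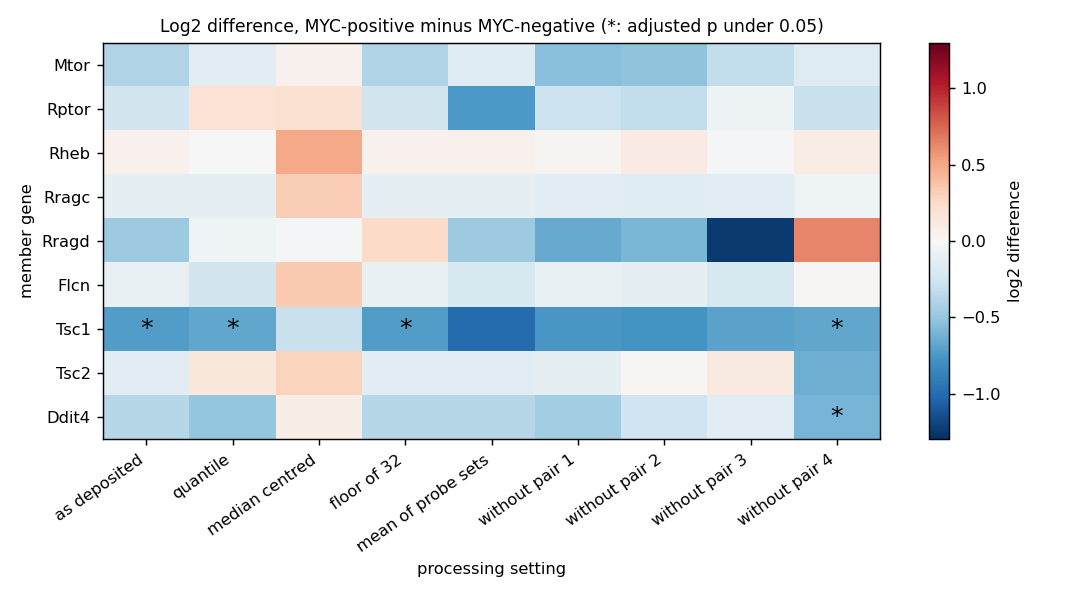
Log2 difference of the 9 members (down) under 9 settings of the processing (across), in colour, with a star where adjusted p is under 0.05. Tsc1 is below 0 in each and starred in 4 of the 9, and Ddit4 is starred without pair 4.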

How the data were processed

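The authors deposited 1 linear signal intensity per probe set and array, from MAS5 per the submitters' processing notes, whose version and scaling target were not given in the sources used here. Per the labels' protocols, RNA of 5 to 20 ng was amplified and labelled with NuGEN kits. Of 45056 probe sets, 34945 had 1 gene symbol in the platform annotation, 932 had several and 19 were array controls.

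Signals were floored at 1 before log2. Probe sets with a mean log2 above the 40th percentile of non-control probe sets (a signal of 18.7) were kept, and the brightest stood for its gene. limma 3.58.1 in R 4.3.3 fitted 11754 genes with the pair as a block and an intensity trend, with Benjamini-Hochberg adjustment over all of them, called at an adjusted p under 0.05. Tests were 2-sided, differences are MYC-positive minus MYC-negative, and 4 arrays a group limit the precision. With 4 pairs the smallest p of an exact test by sign changes is 0.125, so none was made. The pairs come from the sample descriptions. Deviations of partners from their group means correlated at 0.26, 0.17, 0.09 and 0.12.

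The members and lists were chosen with earlier results of these data known. Named were the members, Myc, the first 3 markers of each list that held any above the filter, the called genes of each pathway list (at most the 4 largest a direction) and the 3 genes most correlated with Mtor and with Tsc1. Genes outside this rule, such as Prkaa1, the GATOR1 genes or Pax5, were chosen after their values were seen. The procedure was run on data simulated from its own fitted model with independent noise, which cannot show how outlying arrays affect the calls.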

Additional observations from a re-analysis of the deposited data

Results flagged for a closer look

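In 6 of 74 groups of 4 arrays examined (members' probe sets, named list genes and the balance of activators and inhibitors), 1 array stood apart from the other 3 by Dixon's criterion, and chance alone gives about 1 in 20. For Rptor, the MYC-negative array of pair 4 was low at 78.9. For Tsc1, the MYC-positive array of pair 1 was high at 1363 on 1455252_at, and that of pair 4 was low at 2.60 on 1439989_at. For Rragd, the MYC-negative array of pair 1 was low at 35.5. For Fnip2, the MYC-positive array of pair 4 was low at 108. For Eef2k, the MYC-negative array of pair 3 was low at 248. Of these 6 arrays 3 belong to pair 4, and the cause was not tested.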

How the results depend on the processing

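With no replicate block, 0 members and 901 genes were called lower, and 10 pathway genes higher. Among the named genes, the calls of Tsc1, Telo2, Sec13, Sesn1, Eif4e, Ctsb and Atp6v0d1 ended there. Quantile normalization ended that of Sec13, and no filter those of Telo2, Fnip2, Sec13 and Atp6v0d1. After median centring 0 members were lower, 3204 genes were higher and 546 lower, and 37 pathway genes were higher and 3 lower. Centring ended the calls of Tsc1, Rictor, Sesn3, Bmt2, Gsk3b and Atp6v0d1. With the mean over probe sets 0 members were lower, and the calls of Tsc1, Telo2, Bmt2, Eef2k, Ulk1 and Ctsb ended. With no intensity trend 736 genes were higher and 771 lower, and 6 pathway genes were higher and 4 lower. Dropping the trend ended the calls of Telo2, Rictor, Fnip2, Sec13, Sesn3, Bmt2, Gsk3b, Eif4e, Larp1, Ctsb and Atp6v0d1. Leaving out 1 pair at a time gave 0 to 2 members lower (Tsc1 and Ddit4 without pair 4), 403 to 1742 genes higher and 352 to 2036 lower, and 5 to 18 pathway genes higher and 2 to 15 lower. The smallest counts of genes came without pair 1, and without pair 2 there were 455 higher and 425 lower. The balance of activators over inhibitors ran from -0.09 without pair 3 to 0.67 without pair 4. The planned balance without Rps6kb1 is the one given, since that gene was not in it. Under each of these alternatives 0 members were called higher. The share of calls that were higher was 49.4% on the deposited scale, 57.2% with quantile normalization and 85.4% with median centring.

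Signs turned for uncalled members. After quantile normalization Rptor was at 0.19 and Tsc2 at 0.14. After median centring Mtor was at 0.052, Rptor at 0.20, Tsc2 at 0.29, Rragc at 0.32, Flcn at 0.34 and Ddit4 at 0.075. With a floor of 32 Rragd was at 0.25. Without 1 pair Tsc2 ran from -0.63 to 0.12, Rheb from -0.017 to 0.11, Rragd from -1.25 to 0.63 and Flcn from -0.205 to 0.011. On other probe sets Mtor was at 0.28, Tsc1 at 0.09 and Flcn at 0.015. Without _x_at and _s_at probe sets, an alternative chosen after seeing the data, Eef2k was at -0.28. The cause was not tested.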

Other observations

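Some pathway genes outside the members had large differences that did not pass, and are named after their values were seen. Mlst8, which encodes a subunit shared by mTORC1 and mTORC2, was at -1.40 on the log2 scale (SE 0.56, limma adjusted p = 0.106), and Sesn2, the stress-induced sestrin gene, at -0.94 (SE 0.41, adjusted p = 0.132). Mlst8 differed by -0.99, -0.24, -0.70 and -3.66 in pairs 1 to 4, so its size rests largely on pair 4. Fnip1, the other gene for a folliculin partner, was at -0.75 (SE 0.27, adjusted p = 0.0755), while Fnip2 was at 1.59. The pair differences of Fnip1 were -0.775, -0.422, -0.011 and -1.783, largest in pair 4. Rhebl1, a relative of Rheb, was at 0.79 (SE 0.35, adjusted p = 0.142). The translation repressor gene Eif4ebp1, whose protein mTORC1 phosphorylates, was at 0.69 on an _x_at probe set (SE 0.30, adjusted p = 0.132).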
